A study of Homo sapiens with 6 samples.

Results

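Cholesterol synthesis and its sterol control were followed library by library in 8 genes: HMGCS1, IDI1, FDPS, FDFT1, SQLE, SC5D, DHCR7 and INSIG1. They were taken by gene symbol, as sterol synthesis enzymes and known SREBP2 targets, and all 8 were found among the 61806 rows of the gene table, each on 1 row. The cells were 293T, a line derived from human embryonic kidney, transfected by lipofection with a plasmid named GFP (3 libraries) or a plasmid named GFP-812 (3 libraries). GFP is green fluorescent protein. The labels leave the number in the second name unexplained, and the series title concerns truncated NEK1, a protein kinase. The labels do not say whether the replicates were separate cultures, so a p-value here reflects variation between these libraries that may be technical. Levels of single libraries are listed in the order of their replicate numbers, 1 to 3.

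Cholesterol is built from acetyl-CoA through mevalonate, isoprenoid phosphates, squalene and a series of sterols. SREBP2, encoded by SREBF2, is the main transcription factor of this pathway: when sterols in the endoplasmic reticulum are low, SCAP carries it to the Golgi, where it is cut free to enter the nucleus and switch on the synthesis genes and genes of lipoprotein uptake. INSIG1 holds SCAP in the endoplasmic reticulum when sterols are high, and its own gene is a target, so that it serves as a feedback brake. Growing cells in culture generally express the pathway, since they need sterols for new membrane.

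Because the genes share this regulator, the start regions of 3 of them are shown. RefSeq promoter windows (build GRCh38.p14) were matched by symbol for 6 genes: INSIG1, HMGCS1, IDI1, FDPS, SC5D and DHCR7. The stretches below are the parts of the windows that lie upstream of the gene's start in the deposited table and that no GENCODE exon overlaps. INSIG1 is shown as the single gene of the 8 that passed the test described below, and HMGCS1 and FDPS as pathway enzymes with a comparable stretch. They cover chr7:155297628-155297775 (plus strand) for INSIG1, chr5:43313513-43313662 (minus strand) for HMGCS1 and chr1:155308616-155308747 (plus strand) for FDPS. Capitals mark the CCAAT box, the site letters of the factor NF-Y, here in its reverse form ATTGG, and in INSIG1 also the letters CACNCCAC in reverse.
INSIG1: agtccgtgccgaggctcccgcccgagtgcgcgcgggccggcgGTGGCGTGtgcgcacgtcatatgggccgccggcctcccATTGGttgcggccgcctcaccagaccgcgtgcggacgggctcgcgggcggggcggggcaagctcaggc
HMGCS1: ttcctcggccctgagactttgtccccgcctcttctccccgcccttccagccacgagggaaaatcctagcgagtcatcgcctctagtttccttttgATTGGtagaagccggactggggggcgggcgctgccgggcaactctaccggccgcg
FDPS: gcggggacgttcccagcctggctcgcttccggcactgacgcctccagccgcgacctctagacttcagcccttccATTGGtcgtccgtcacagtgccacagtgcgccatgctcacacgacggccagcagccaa

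Over the whole windows, CCAAT was searched on both strands and lay in 6 of the 6 matched genes, against 39.7% of all 27305 genes with a window. IDI1 held it at 5 places over its windows, a pair of which overlapped on opposite strands. FDPS held it at 3, HMGCS1 and DHCR7 at 2, and INSIG1 and SC5D at 1. The GC box GGGCGG, the letters bound by SP1, also lay in 6 of 6, against 48.3% of all genes. A form of the sterol regulatory element, TCACNCCAC, was searched on both strands and lay in 0 of the 6 and in 1.39% of all genes. Its shorter part CACNCCAC, which every match of the longer form contains, lay in 3 of the 6 (INSIG1, IDI1 and SC5D) and in 7.05% of all genes. A gene was counted if any of its windows held the letters, so a gene with more windows had more places to match. IDI1 had 3 windows, HMGCS1, SC5D and DHCR7 2 each, and INSIG1 and FDPS 1 each. Of all 35116 windows, 34.6% held CCAAT, 45% the GC box, 1.13% TCACNCCAC and 5.87% CACNCCAC. The 27305 genes were not limited to the 16834 expressed enough to be tested below. Shares among the tested genes alone were not computed. The matches are letters in a window around a start, and no binding was measured. Sterol regulatory elements with other letters, or outside the windows, could not be found by this search.

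The 6 libraries held 14255148 to 17613814 counts. NEK1 stood at 493.7 to 562.7 FPKM (counts scaled by exonic length and library total) in GFP-812 libraries and at 3.82 to 3.99 FPKM in GFP libraries. Epithelial keratins were present (KRT8 at 10.5 against 9.53 FPKM and KRT18 at 15.4 against 14.7 FPKM, group means of GFP-812 and GFP), beside VIM at 119.9 against 119.1 and CDH2 at 6.87 against 7.03. The kidney marker PAX8 was near 0 (0.03 against 0.0133 FPKM), and PAX2 (0.62 against 0.397), EPCAM (1.03 against 0.927) and CDH1 (0.677 against 0.643) were low. Of 20 markers of blood, endothelium, fibroblasts, liver, muscle and nerve, 17 had a mean under 1 FPKM, HBB had 0 counts in all libraries and PTPRC 1 count at most in any library, while the other 3 included COL1A1 and SYT1, at 1.63 and 1.71 FPKM in GFP-812 cells. Their summed level was 6.96 to 7.41 FPKM in GFP-812 and 5.34 to 6.98 FPKM in GFP libraries, and 1 of 8 tested rose, the muscle gene DES, named after its value was seen (0.597 against 0.223 FPKM, edgeR adjusted p = 0.046); their part in the sterol genes' values was not tested.

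Of the 8 sterol genes 1 rose in GFP-812 cells, 0 fell and 7 did not pass the test (edgeR's quasi-likelihood test, adjusted p under 0.05 over 16834 genes). The gene that rose was INSIG1, by 1.10-fold. Over all genes tested, 1.18% were called higher and 2.67% lower, 3.84% in all. At an unadjusted p under 0.05 stood 3 of the 8 (INSIG1, FDFT1 and HMGCS1), against 16.1% of all genes. The median log2 fold change of the 8 was 0.08, against 0.01 over all genes, and 7 of 8 fitted values lay above 0, against 51.8% of all genes. Without GFP replicate 1 the median was 0.05, with 6 of 8 above 0, and without GFP replicate 3 it was 0.10, with 8 of 8 above 0. In bulk RNA, a change in some cells (such as those that took up plasmid) and a smaller change in every cell cannot be told apart.

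**Figure D1:**
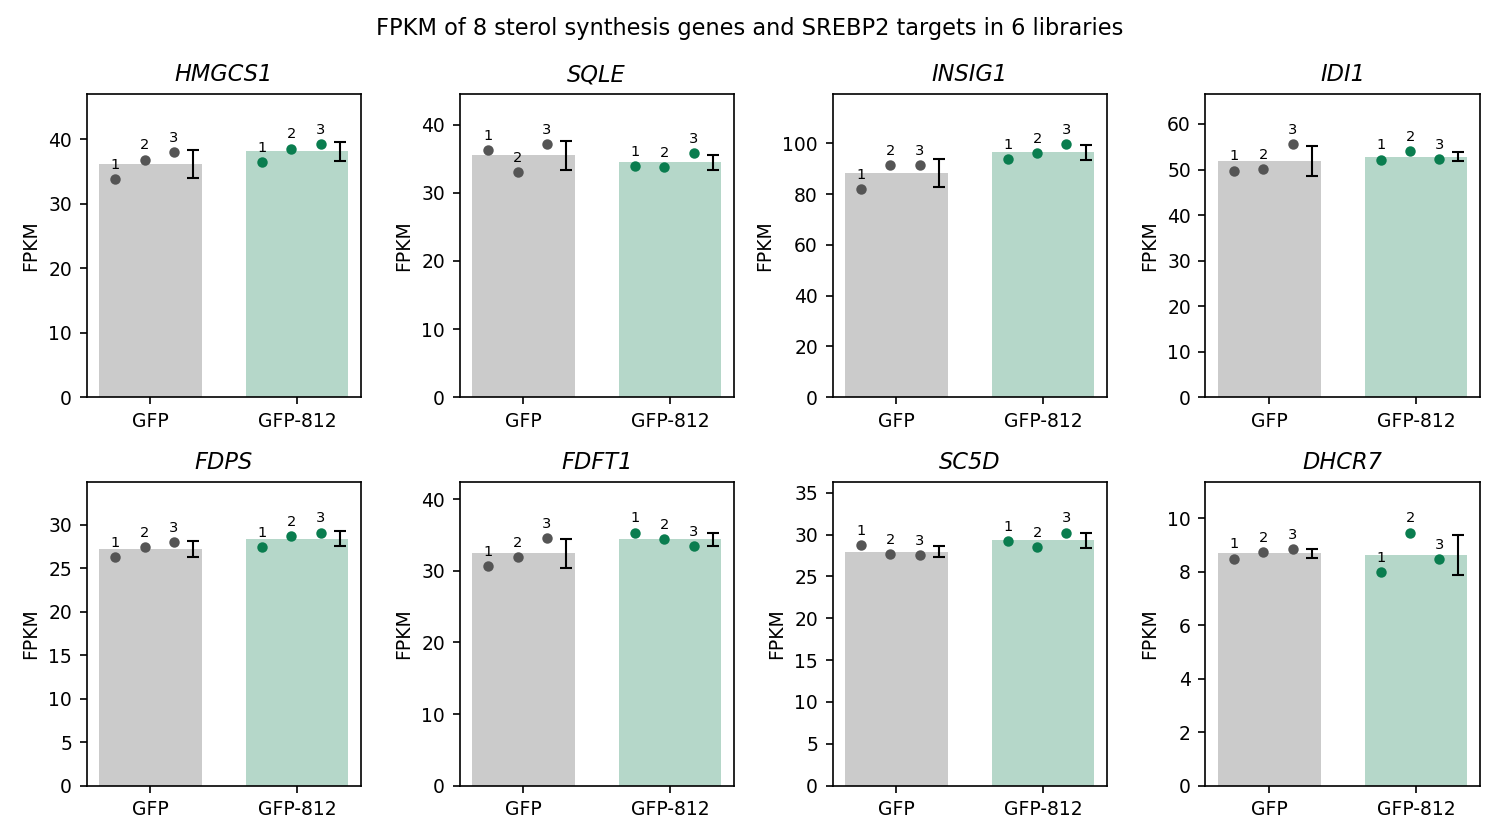
FPKM of each of the 8 genes (vertical axes, each from 0) in the 3 GFP and 3 GFP-812 libraries. Points are libraries with their replicate numbers, bars are group means and error bars are SD; only INSIG1 has every GFP-812 point (93.9 to 99.7) above every GFP point (81.9 to 91.5).

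INSIG1 (ENSG00000186480, hg38 chromosome 7, 155297776 to 155310235, plus strand) encodes the sterol-dependent anchor of SCAP. Its levels were 93.9, 96.1 and 99.7 FPKM in the GFP-812 libraries, and 81.9, 91.5 and 91.5 FPKM in the GFP libraries. The groups did not overlap, and GFP replicate 1 was the low library, well under the other two of its group. Over all genes tested, 7.93% had every GFP-812 library above every GFP library and 12.1% had every one below. Group means were 96.6 ± 2.94 and 88.3 ± 5.51 FPKM (SD, n = 3 each), and the fitted log2 fold change was 0.14 (SE 0.0409, 95% interval 0.06 to 0.22, edgeR adjusted p = 0.0324). The exact 2-sided permutation test on log2(FPKM + 1) gave p = 0.1, the smallest that 3 against 3 libraries allow. The call was lost without GFP replicate 1 (log2 fold change 0.09, edgeR adjusted p = 0.347), without GFP-812 replicate 1, 2 or 3 (log2 fold changes 0.16, 0.15 and 0.12, adjusted p = 0.0509, 0.151 and 0.216), with scaling by total counts alone (0.13, adjusted p = 0.0544) and with limma on log2(FPKM + 1) or log2(FPKM + 0.1) (both 0.13, adjusted p = 0.275 and 0.276).

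Among the enzymes from acetyl units to farnesyl diphosphate, none of the 3 followed here passed the test. HMGCS1 (ENSG00000112972, chromosome 5, 43287470 to 43313512, minus strand) makes HMG-CoA, from which mevalonate is formed. It stood at 36.6, 38.6 and 39.3 FPKM in the GFP-812 libraries and at 33.9, 36.9 and 38 FPKM in the GFP libraries. The groups overlapped, with GFP replicate 1 lowest, and the fold was 1.06 (95% interval 1.00 to 1.13, unadjusted p = 0.0452, adjusted p = 0.295).

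IDI1 (ENSG00000067064, chromosome 10, 1039152 to 1049119, minus strand) interconverts the isoprenoid units that are joined into longer chains. It stood at 52.2, 54 and 52.3 FPKM in the GFP-812 libraries and at 49.8, 50 and 55.6 FPKM in the GFP libraries. The highest of all 6 values was in a GFP library, replicate 3, and the fold was 1.03 (95% interval 0.97 to 1.09, adjusted p = 0.685). Its log2 fold change of 0.04 became 0.0177, 0.0135 and 0.09 when GFP replicates 1, 2 and 3 were left out in turn, and passed in none of these. FDPS (ENSG00000160752, chromosome 1, 155308748 to 155320666, plus strand) joins those units into farnesyl diphosphate, the branch point to squalene, ubiquinone, dolichol and protein prenylation. It stood at 27.4, 28.7 and 29.1 FPKM in the GFP-812 libraries and at 26.2, 27.4 and 28 FPKM in the GFP libraries. The groups overlapped, and the fold was 1.05 (95% interval 0.98 to 1.13, adjusted p = 0.473).

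Neither of the 2 squalene genes passed with all 6 libraries. FDFT1, squalene synthase, makes the first compound committed to sterols (ENSG00000079459, chromosome 8, 11795573 to 11839304, plus strand). It stood at 35.3, 34.4 and 33.5 FPKM in the GFP-812 libraries and at 30.7, 32 and 34.6 FPKM in the GFP libraries. GFP replicate 3 lay inside the GFP-812 range and the other two GFP libraries below it, at a fold of 1.07 (95% interval 1.01 to 1.14, unadjusted p = 0.0348, adjusted p = 0.257). SQLE, squalene epoxidase, catalyses the next step, a second control point of the pathway (ENSG00000104549, chromosome 8, 124998497 to 125022283, plus strand). It stood at 33.9, 33.8 and 35.8 FPKM in the GFP-812 libraries and at 36.3, 33.1 and 37.1 FPKM in the GFP libraries. GFP libraries held both the lowest and the highest value, and the fold was 0.98 (95% interval 0.92 to 1.05, adjusted p = 0.833). Without GFP replicate 3, the log2 fold change of SQLE turned from -0.03 to 0.00479, and that of FDFT1 was 0.15 (edgeR adjusted p = 0.0234). The difference between the 2 genes' fold changes was not tested.

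The 2 late enzymes did not pass either. SC5D (ENSG00000109929, chromosome 11, 121292681 to 121313410, plus strand) introduces a double bond into lathosterol to give 7-dehydrocholesterol. It stood at 29.2, 28.5 and 30.2 FPKM in the GFP-812 libraries and at 28.8, 27.6 and 27.5 FPKM in the GFP libraries. The groups met at a single crossing, GFP replicate 1 above GFP-812 replicate 2, and the fold was 1.06 (95% interval 1.00 to 1.12, unadjusted p = 0.0509, adjusted p = 0.312). DHCR7 (ENSG00000172893, chromosome 11, 71428193 to 71452868, minus strand) reduces 7-dehydrocholesterol to cholesterol. It stood at 7.98, 9.46 and 8.46 FPKM in the GFP-812 libraries and at 8.49, 8.72 and 8.83 FPKM in the GFP libraries. All 3 GFP values lay within the GFP-812 range, and the fold was 1.00 (95% interval 0.92 to 1.09, adjusted p = 0.978), with a direction that turned under 5 of the 15 alternatives.

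These intervals, which are not adjusted over genes, bound what the libraries allow. Over the 8 genes the lowest limit was 0.92-fold and the highest 1.17-fold. The genes held 782 to 6412 counts per library, so that counting error alone gave a coefficient of variation of 1.44% (INSIG1) to 3.58% (DHCR7) at each gene's lowest count, against 1.94% to 8.75% between replicates.

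**Figure D2:**
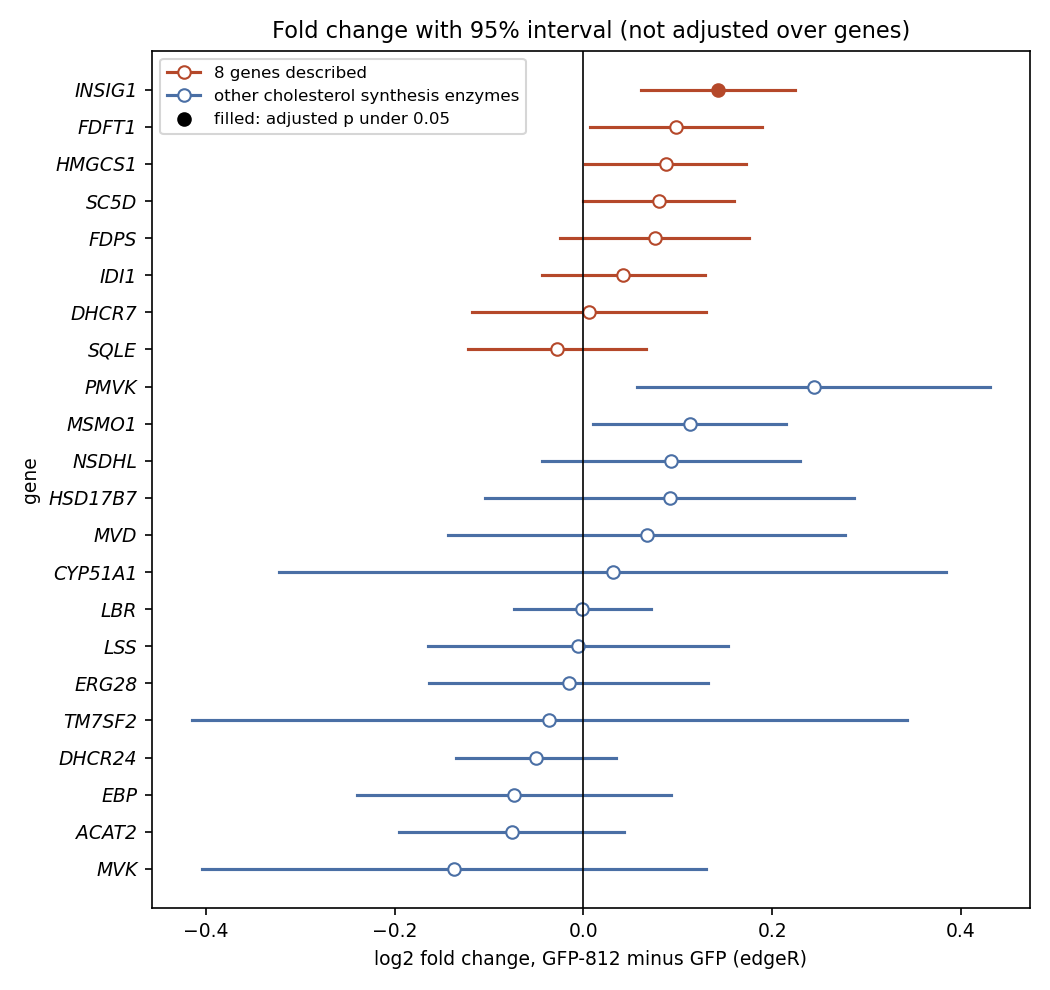
Log2 fold change of GFP-812 against GFP (horizontal axis, edgeR, 3 libraries per group) for the 8 genes and 14 of the other cholesterol synthesis enzymes (vertical axis); lines are 95% intervals and filled points passed an adjusted p under 0.05. INSIG1, at 0.14, is the only filled point, and MVK has the lowest value at -0.14 and PMVK the highest at 0.24.

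Levels per length differed far more between genes than between groups. Mean FPKM over 6 libraries ran from 92.4 for INSIG1 through 52.3 for IDI1, 37.2 for HMGCS1, 35 for SQLE, 33.4 for FDFT1, 28.6 for SC5D and 27.8 for FDPS to 8.66 for DHCR7. INSIG1 and IDI1 were first and second, and DHCR7 last, in 6 of 6 libraries. HMGCS1 was above SQLE in 5 of 6 libraries, SQLE above FDFT1 in 4 and SC5D above FDPS in 4, and the ranges of those neighbours overlapped. Each gene's highest library was 1.10 times (SC5D) to 1.22 times (INSIG1) its lowest. FPKM depends on the exonic length the authors used, 10054 bases for SC5D against 3650 for INSIG1.

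Some counts may be affected by overlapping neighbours, in a direction not known, since the sources used here do not say whether counting used strand. Antisense RUSC1-AS1 overlaps FDPS and took 1650 counts over 6 libraries against 9899 for FDPS. IDI2-AS1 overlaps IDI1 (457 against 21516 counts), and an unnamed gene on the other strand overlaps DHCR7 (431 against 5706 counts). The 8 FDPS pseudogenes held 15 counts or fewer each and the 3 IDI1 pseudogenes held 0.

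The 8 genes varied together only in part, and the order of libraries did not follow the groups. Each gene's log2 CPM was set against its own mean over 6 libraries, and these deviations were averaged over the 8. The averages were 0.00, 0.05 and 0.05 for the GFP-812 libraries and -0.07, -0.05 and 0.02 for the GFP libraries, so that GFP replicate 3 lay above GFP-812 replicate 1. In GFP replicate 2, 0 of 8 genes stood above their own mean and in GFP replicate 1, 2 did, against 6 in GFP replicate 3 and 4, 7 and 7 in the GFP-812 libraries. The summed counts of the 8 made up 0.159%, 0.162% and 0.165% of each GFP-812 library and 0.150%, 0.154% and 0.161% of each GFP library, with GFP replicate 3 inside the GFP-812 range.

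**Figure D3:**
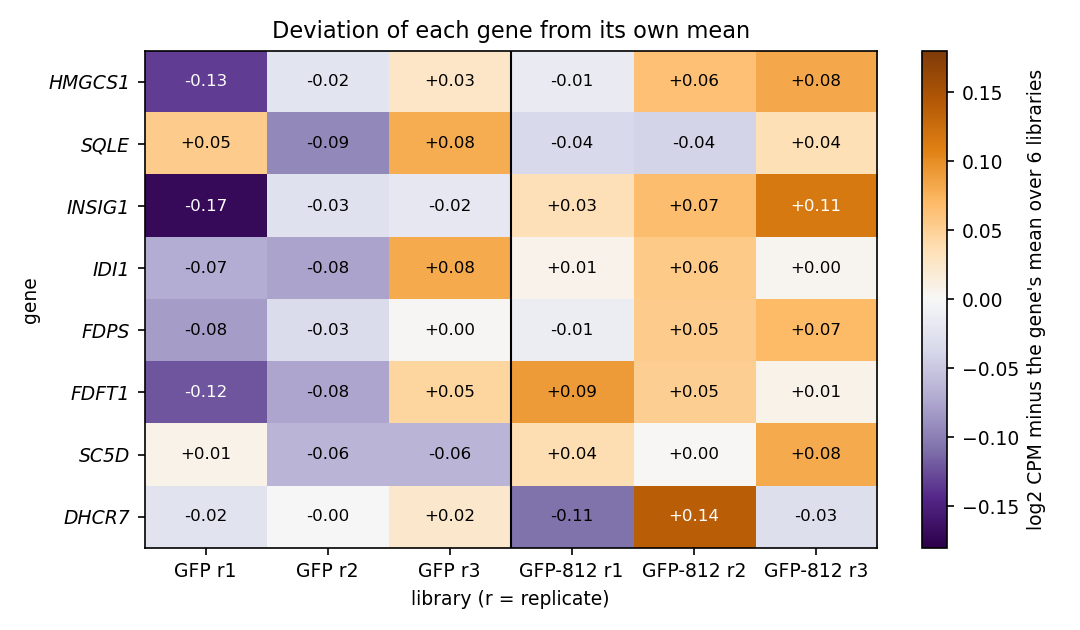
Deviation of each gene (rows) from its own mean over the 6 libraries (columns), in log2 CPM after TMM scaling, with the value printed in each cell. GFP replicate 1 holds the lowest value, INSIG1 at -0.17, and GFP-812 replicate 2 the highest, DHCR7 at 0.14.

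How many of the 8 genes passed depended on single libraries. Without GFP replicate 3, 3 rose: INSIG1 (log2 fold change 0.17, edgeR adjusted p = 0.00162), FDFT1 (0.15, 0.0234) and HMGCS1 (0.12, 0.0485), while 7.63% of all genes were called. Without GFP replicate 1, 0 passed and 1.52% of all genes were called. Without GFP-812 replicates 1, 2 or 3, 0 passed, with 2.76%, 1.21% and 1.69% of all genes called, and without GFP replicate 2 INSIG1 alone passed (2.39% of all genes called). The coefficient of variation between replicates was larger in GFP than in GFP-812 libraries for 6 of the 8 genes, SC5D and DHCR7 being the others.

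The rest of the pathway held no call. Of the 15 other cholesterol synthesis enzymes 0 passed edgeR's adjusted threshold, 2 had an unadjusted p under 0.05, and the median log2 fold change was -0.01, with 6 above and 9 below 0. The 2 with the smallest p were PMVK, which phosphorylates phosphomevalonate, and MSMO1, which acts in removing methyl groups from lanosterol. PMVK stood at 21.9, 23 and 24.2 FPKM in the GFP-812 libraries and 18.8, 18.4 and 21.8 FPKM in the GFP libraries, without overlap, at a log2 fold change of 0.24 (adjusted p = 0.142, and 0.0359 without GFP replicate 3). MSMO1 had a log2 fold change of 0.11 (adjusted p = 0.243).

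Of the 17 genes that control SREBP, 0 passed, 1 had an unadjusted p under 0.05, and the median was 0.00. SREBF2 averaged 13.2 ± 0.71 FPKM in GFP-812 and 13.7 ± 0.488 FPKM in GFP cells (SD, n = 3 each), a log2 difference of -0.03 (95% interval -0.13 to 0.07), and SREBF1, the gene of the factor of fatty acid synthesis, 1.89 ± 0.111 and 1.94 ± 0.195 FPKM (SD, n = 3 each). SCAP had a log2 fold change of 0.05 (95% interval -0.08 to 0.17) and INSIG2, the second INSIG protein, one of 0.07 (95% interval -0.05 to 0.19, adjusted p = 0.621). PGRMC1, a haem-binding membrane protein reported to bind SCAP and INSIG1, had 0.10 (edgeR adjusted p = 0.142, and 0.0331 without GFP replicate 3). Its DESeq2 adjusted p was 0.0367, but DESeq2 adjusted over 5754 genes, not 16834, and called 8.36% of them. ERLIN2, which takes part in degrading proteins of the endoplasmic reticulum, had 0.10 (edgeR adjusted p = 0.336). SREBP2 acts through cleavage of its protein, which RNA levels do not measure.

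Of 20 genes of sterol uptake, transport and storage, 18 were tested and 0 passed; 2 were too low to test, SOAT2, which esterifies cholesterol, among them. The median was 0.09, with 14 above and 4 below 0 and 4 at an unadjusted p under 0.05. GRAMD1C, of a family that moves cholesterol from the plasma membrane to the endoplasmic reticulum, had 0.27 (adjusted p = 0.126, and 0.0415 without GFP replicate 3), and LRP8, a receptor for apolipoprotein E and reelin, 0.17 (adjusted p = 0.146).

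Of 15 genes of the isoprenoid branches 0 passed, 1 had an unadjusted p under 0.05, and the median was -0.01; PDSS1, of ubiquinone side-chain synthesis, had -0.14 (adjusted p = 0.309) and GGPS1, which makes geranylgeranyl diphosphate, -0.10 (adjusted p = 0.339). Of 16 genes of fatty acid synthesis and SREBP1 targets 0 passed, 4 had an unadjusted p under 0.05, and the median was 0.01. FASN, fatty acid synthase, had -0.11 (adjusted p = 0.152, and 0.0444 without GFP replicate 3) and ACACA, acetyl-CoA carboxylase, -0.12 (adjusted p = 0.153). No difference between these lists and the 8 genes was tested.

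**Figure D4:**
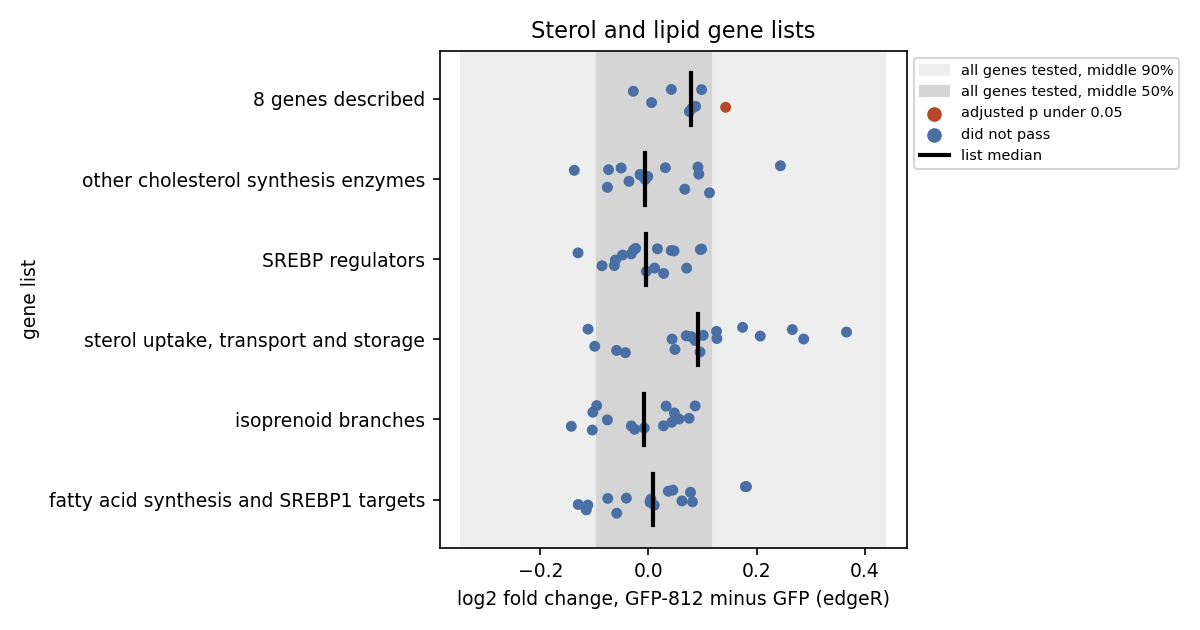
Log2 fold change of GFP-812 against GFP (horizontal axis, edgeR) for the tested genes of 6 lists (rows); each point is a gene, black bars are list medians, and grey bands span the middle 50% (-0.10 to 0.11) of all 16834 genes, with the wider, paler band from the 5th to the 95th percentile (-0.35 to 0.44). INSIG1 is the only coloured point past the threshold, and it lies inside the wider band.

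Genes whose pattern over the 6 libraries was most like the mean of the 8 were UROS, an enzyme of haem synthesis, RHOA, a small GTPase, EIF6, a factor of ribosome maturation, HNRNPA1, an RNA-binding protein, and SLAIN1, a microtubule protein. Likeness was the root mean square difference of mean-centred log2 CPM over 6 libraries, and it was 0.00416 for UROS and 0.0106 to 0.0153 for the others, the smallest among 6867 genes with a mean of at least 5 FPKM. By the same measure the 8 genes themselves lay from 0.0158 (FDPS) to 0.0702 (SQLE) from their mean. The 5 named genes lay closer, but they were picked as the smallest of 6867 distances, so no conclusion about the 8 follows. Set among those candidates, FDPS would rank 7, IDI1 175 and HMGCS1 218, and the others from 805 (FDFT1) to 2360 (SQLE). Each of the 8 is part of the mean it was set against, which shortens its distance. The candidates are not, so these ranks are not a like comparison. UROS and SLAIN1 lay below 20 FPKM, so that the alternative minimum of 20 FPKM removes them by construction and leaves the other 3.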

How the data were processed

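Poly(A) RNA of 6 libraries of 293T cells was sequenced. Per the submitters' processing notes, the authors used HISAT2 2.2.1, HTSeq 0.6.1, cutadapt 1.9.1 and FastQC 0.10.1 and the build hg38; for annotation release and strand setting, nothing is given in the sources used here. The authors deposited raw counts and FPKM per gene and library, per the file headers, beside the exonic length in bases. Recomputing FPKM from counts, length and library total matched 100% of values within 0.0051. Counts were tested with edgeR 4.0.16 in R 4.3.3 (filterByExpr, TMM, quasi-likelihood, group as the single term; 2-sided p adjusted by Benjamini-Hochberg over 16834 genes, threshold 0.05); standard errors come from the F statistic. Within groups, chi-square per degree of freedom between libraries was 2.13 to 4.03, so none was counted as a duplicate. The script was tested on simulated data. The genes, the 5 pathway lists (83 entries) and the marker lists were chosen with earlier results of these data known. Named were the 8 genes, fixed pathway genes (SREBF2, SREBF1, SCAP and INSIG2), the 2 smallest p of each list with any past the threshold, the 5 most alike genes and markers at 1 FPKM or more. The text also names DES and the low markers PAX2, PAX8, EPCAM, CDH1, PTPRC and HBB, the untested gene SOAT2 and, for its extreme value, MVK; some genes of the lists, though counted, are not reported here by name. Alternatives were DESeq2 1.42.0 (adjusted over 5754 genes), limma 3.58.1 (voom, and log2 FPKM with pseudocounts of 1 and 0.1), other scalings and filters, a replicate block and leaving out each library.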

Additional observations from a re-analysis of the deposited data

How the results depend on the processing

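INSIG1 kept its direction under all 15 alternatives and its call under 8. Its log2 fold change was 0.1298 with total counts alone, 0.1293 and 0.1306 with limma on log2(FPKM + 1) and log2(FPKM + 0.1), and 0.09466 to 0.1683 with a library left out. With a library left out, HMGCS1 ran from 0.04334 to 0.1218, FDFT1 from 0.06263 to 0.1471 and SQLE from -0.08079 to 0.004792, the last, without GFP replicate 3, being its 1 reversal. DHCR7, near 0, turned to -0.007005 with total counts, -0.00973 and -0.01104 with limma, and ran from -0.06201 (GFP-812 replicate 2 left out) to 0.05171 with a library left out, passing 0 also when GFP replicate 1 was left out (-0.006555). IDI1 (0.01351 to 0.09499 with a library left out), FDPS (0.05355 to 0.09533) and SC5D (0.0617 to 0.1034) kept their direction and did not pass under any alternative. Of the 8 genes, 0 passed with total counts or limma on log2(FPKM + 1), and 0 to 3 with a library left out. Pathway genes past the threshold numbered 1 with DESeq2 (PGRMC1) and 0 to 4 with a library left out, the 4, named partly after their values were seen, being PMVK, PGRMC1, GRAMD1C and FASN without GFP replicate 3; with the same library 0 passed among isoprenoid genes. Over all genes 647 were called (198 higher, 449 lower); limma on log2(FPKM + 1) called 3 (3 and 0), with 2071 at an unadjusted p under 0.05, DESeq2 called 126 higher, and with a library left out 209 to 1317 (62 to 507 higher, 147 to 810 lower) were called. The cause of these shifts was not tested. Same-numbered libraries of the 2 groups did not deviate together (r = 0.03, -0.01 and 0.01 over 16834 genes), so the replicate number was not taken as a pairing; with it as a block, 777 genes were called, INSIG1 stayed the 1 gene of the 8 (0.1432, adjusted p = 0.0181) and 0 pathway genes passed.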
